A study of Mus musculus with 6 samples.

Results

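The mitochondrial ribosomal protein genes were taken as every protein-coding gene of the deposited table whose symbol begins with Mrpl or Mrps followed by a digit. They numbered 78 of the 54532 genes in the table, 49 of them named Mrpl and 29 named Mrps, and the table describes all 78 as mitochondrial ribosomal proteins. The data are RNA-seq of hippocampal tissue from 3 wild-type mice (WT) and 3 knock-in mice (TG). In TG mice the protein changes G82R and L85P stand together in Slc1a2, which encodes the astrocytic glutamate transporter GLT-1. The changes were introduced with CRISPR/Cas9 on a C57BL/6N background, so they are present in every cell of the animal, and no allele or treatment is named that WT and TG have in common. Age, sex and zygosity of the sequenced animals are not given in the sources used here. The mice of the study included males and females of each genotype, and its WT controls were littermates. The labels call the libraries mice 1 to 3 of each genotype. The p-values weigh the difference between TG and WT against the spread of these 6 libraries within their genotypes.

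Mitochondria make a small set of respiratory chain proteins on their own ribosomes. The RNAs of these ribosomes, mt-Rnr1 and mt-Rnr2, come from the mitochondrial genome, while every protein of the particle is encoded in the nucleus, made in the cytosol and imported. Many of these proteins descend from bacterial ribosomal proteins, and many others have no bacterial counterpart and form the outer layers of the particle. Loss of individual proteins in people causes combined defects of oxidative phosphorylation, often with an affected brain.

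By structure, 26 of the 78 genes encode proteins of the small subunit and 51 encode proteins of the large subunit. The names Mrps18a and Mrps30 mislead here, since both proteins sit in the large subunit. The remaining gene, Mrps36, encodes a protein now known as a component of the 2-oxoglutarate dehydrogenase complex. Of the proteins, 46 were counted as having a bacterial counterpart and 31 as specific to mitochondria. The latter include Mrps18a and Mrps18b, which are related to a bacterial protein whose place in the particle is taken by their paralogue Mrps18c. The genes lie on 17 chromosomes in the mouse build GRCm38, with at most 11 on any of them (chromosome 11).

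These genes are often packed against another gene. A protein-coding gene on the opposite strand starts within 1000 bases of the start of 33 of the 78 genes (42.3%), against 10.8% of the 22028 protein-coding genes examined in the same annotation. Examples of such neighbours are Twnk, the mitochondrial DNA helicase, beside Mrpl43, Sars2, the mitochondrial seryl-tRNA synthetase, beside Mrps12, and the complex I genes Ndufb5 and Ndufs6 beside Mrpl47 and Mrpl36. Mrps11 and Mrpl46 face each other.

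Promoter letters were read in windows of RefSeq (GRCm38.p6) that run from 250 bases before to 50 bases after a start, which 69 of the 78 genes matched by symbol, with 75 windows. The core CCGGAAG of the ETS motif, which the factor GABPA binds, stood on either strand in 26 of the 75 windows (34.67%), against 8.858% of all 32851 windows of the same length. The core of the NRF1 motif, searched as GCGCA, any base (N) and GCGC in a row, stood in 13 windows (17.33%), against 4.603%. GABPA and NRF1 are known activators of nuclear genes for mitochondrial proteins, and the letters describe sequence, not bound sites. At least one of the cores was found in 35 of the 69 genes (50.72%) and both in 4 (5.797%), against 13.99% and 1.121% of all genes in the RefSeq table. The GC content of the windows was higher too, with a median of 58.67% against 52.67%, and both cores are rich in G and C. The 250 bases before the start are shown for Mrps22, which has an ETS core 11 bases before the start, for Mrpl52, with one 47 bases before it on the opposite strand, for Mrpl45, which has NRF1 cores 120 and 38 bases before the start, and for Mrpl41, the most abundant of the genes, in which neither core was found. The cores are in capitals, each sequence is written from 5′ to 3′ on the strand of its gene, and none of the 4 printed stretches holds an annotated exon. Mrpl52 also has an ETS core and Mrpl45 an NRF1 core just after the start, outside the bases printed.
Mrps22 (chr9:98601680-98601929, minus strand): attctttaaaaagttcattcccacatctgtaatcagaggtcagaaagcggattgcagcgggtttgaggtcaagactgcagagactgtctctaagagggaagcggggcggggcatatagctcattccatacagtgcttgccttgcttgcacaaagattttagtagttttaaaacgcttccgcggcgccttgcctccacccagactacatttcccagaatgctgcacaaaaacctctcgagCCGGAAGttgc
Mrpl52 (chr14:54426659-54426908, plus strand): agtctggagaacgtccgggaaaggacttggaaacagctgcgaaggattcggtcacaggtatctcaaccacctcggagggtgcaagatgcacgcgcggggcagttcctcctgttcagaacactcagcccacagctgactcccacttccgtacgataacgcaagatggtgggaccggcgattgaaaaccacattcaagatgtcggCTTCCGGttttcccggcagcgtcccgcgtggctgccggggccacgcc
Mrpl45 (chr11:97315466-97315715, plus strand): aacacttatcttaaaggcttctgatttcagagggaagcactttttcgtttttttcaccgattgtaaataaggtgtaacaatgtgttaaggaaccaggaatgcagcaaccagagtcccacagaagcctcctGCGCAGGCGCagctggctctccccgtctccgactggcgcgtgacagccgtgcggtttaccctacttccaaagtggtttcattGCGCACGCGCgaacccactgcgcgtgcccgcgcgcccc
Mrpl41 (chr2:24975099-24975348, minus strand): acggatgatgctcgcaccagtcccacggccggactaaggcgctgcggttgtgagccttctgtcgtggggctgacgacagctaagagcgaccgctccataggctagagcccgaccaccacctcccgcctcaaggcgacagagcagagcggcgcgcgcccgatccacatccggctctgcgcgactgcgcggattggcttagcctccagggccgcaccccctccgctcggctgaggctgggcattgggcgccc

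Expression is given in FPKM, the number of fragments relative to gene length and sequencing depth, as the authors computed it. The 6 libraries held 16081281 to 18751057 reads on genes, and each gene tested here had between 89 and 1301 reads in a library. Mean FPKM over the 6 libraries ran from 1.90 to 49.99 across the 77 genes with any signal, with a median of 10.6, and the highest FPKM was 26.3 times the lowest. Mrpl53 was listed at 0 in all 6 libraries. Of its exonic bases, 87.97% are shared on the same strand with the readthrough gene Gm42688, which had 17 to 34 reads in a library, so that its own transcript cannot be read from these values.

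Mrpl41, a large-subunit protein specific to mitochondria that has been reported to bind BCL2, was the most abundant, at 53.2, 49.3 and 62.9 FPKM in the WT libraries 1 to 3 and at 38.6, 45.3 and 50.6 in the TG libraries (in this order throughout). It was followed by Mrps21, a small-subunit protein with a bacterial counterpart, at 32.3, 31.6 and 47.0 FPKM in WT and 28.8, 35.6 and 35.4 in TG. The levels of Mrps21, of Mrpl27 (28.0 to 37.4 FPKM over all 6 libraries), of Mrps12 (28.8 to 34.6) and of Mrpl43 (25.4 to 36.3) overlapped, and their order cannot be told from these libraries. Mrpl27 is a protein near the site of peptide bond formation, and Mrps12 belongs to the decoding centre.

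At the lower end, Mrps35, a small-subunit protein specific to mitochondria, was measured at 1.78, 1.94 and 2.02 FPKM in WT and 1.71, 1.98 and 1.97 in TG. Mrpl33 was at 1.48 to 2.62 FPKM, Mrps30 at 1.78 to 2.52 and Mrpl32, whose precursor is cut by the m-AAA protease before assembly, at 1.83 to 3.30. These 4 ranges overlap as well. FPKM is divided by the gene length in the table, and this length differs greatly between both ends of the order. It is 8631 bases for Mrps35, 7326 for Mrpl33, 6666 for Mrps30 and 4982 for Mrpl32, against 888 for Mrpl41 and 739 for Mrps21, while the reads in a library were 234 to 326 for Mrps35 and 542 to 1046 for Mrpl41. The order of these genes thus rests largely on the length, and whether the whole of it is transcribed in the hippocampus was not tested.

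In the comparison of TG with WT, 75 of the 77 mitochondrial ribosomal protein genes tested had a log2 fold change below 0 (97.4%, against 50.4% of the 20952 genes tested), and the differences were small. The median log2 fold change over the 77 genes was -0.15, with quartiles of -0.22 and -0.10, while the median over all genes tested was -0.002. The fold changes ran from -0.44 (Mrps18b) to 0.10 (Mrps11), and 0 of the genes reached a size of 0.5. In FPKM, the TG mean was 73.1% to 108% of the WT mean with a median of 90.1%. Standard errors of the log2 fold changes lay between 0.070 and 0.19.

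The test was limma on log2(FPKM + 0.1) over every gene whose mean FPKM was 0.1 or more, with Benjamini-Hochberg adjustment over these genes. After adjustment 0 of the 77 genes passed 0.05, where 0.00955% of all genes did, and the smallest adjusted p among them was 0.786. At an unadjusted p under 0.05, 7 of the 77 genes were lower in TG (9.091%, against 2.78% of all genes tested) and 0 were higher (against 3.13%). With limma-voom on reads recovered from the FPKM, 7 were lower, 6 of them the same genes (without Mrps22), and 0 passed after adjustment. In that fit 490 of all 20952 genes were lower. Among the 9663 protein-coding genes with a mean FPKM in the same range as the 77 genes, 2.525% were lower at that p and 48.72% had a log2 fold change below 0. All 3 TG libraries lay below all 3 WT libraries for 8 of the 77 genes (10.39%, against 5.71% of all genes), and all 3 lay above for 0 (against 6.35%).

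**Figure D1:**
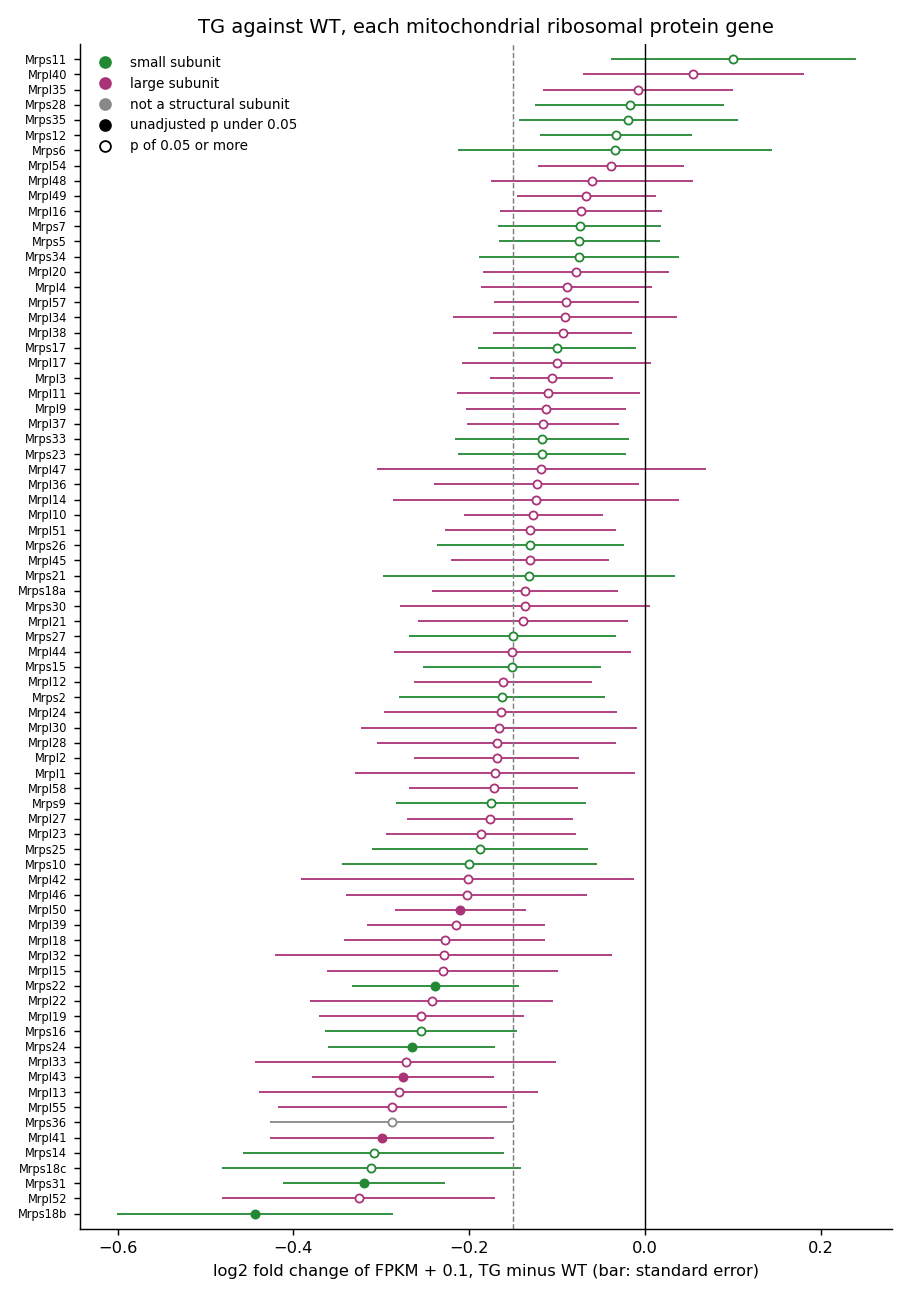
Log2 fold change of FPKM + 0.1, TG minus WT, for each of the 77 genes tested, with the limma standard error as a bar. Colour gives the subunit, filled points have an unadjusted p under 0.05, and the dashed line is the median of -0.15. Of the 77 points, 75 lie left of 0, and the 7 filled ones are all on that side.

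The lower level was not spread evenly over the libraries. With the average of the WT libraries set to 0 for every gene, the median of the 77 genes was -0.06, -0.12 and 0.18 on the log2 scale in WT1, WT2 and WT3, and -0.23, -0.13 and -0.11 in TG1, TG2 and TG3. WT3 was therefore well above the other WT libraries, TG1 was the lowest of all, and TG2 and TG3 lay at the level of WT2. WT3 was the highest of the 6 libraries for 72 of the 77 genes (93.5%), against 25.1% of all genes tested, and TG1 was the lowest for 43 (55.8%), against 19.6%. Summed over the 78 genes, the FPKM came to 993, 951 and 1181 in WT and 880, 952 and 963 in TG, which is 1042 ± 123 in WT and 932 ± 45.1 in TG (SD, n = 3), and the sums of the groups overlap. Without WT3 the median log2 fold change was -0.06, with 60 of 77 genes below 0 and 2 lower at an unadjusted p under 0.05 (Mrpl50 and Mrps31). Without TG1 it was -0.11, with 1 gene lower (Mrps31) and 1 higher (Mrps11). With both WT3 and TG1 left out, a choice made after the library values were seen, it was -0.03, 49 of 77 genes were below 0, 2 were lower (Mrpl2 and Mrps31) and Mrps21 was higher. Leaving out WT1 gave 4 genes lower and leaving out WT2 gave 15. Of all 20952 genes tested, 429 were lower without WT3, 406 without TG1 and 505 without both. The member counts in these 3 settings were near the share of all genes. Among all genes, 527 were higher without TG1 and 560 without both. Without WT1, 628 of all genes were lower, and without WT2, 717 were.

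**Figure D2:**
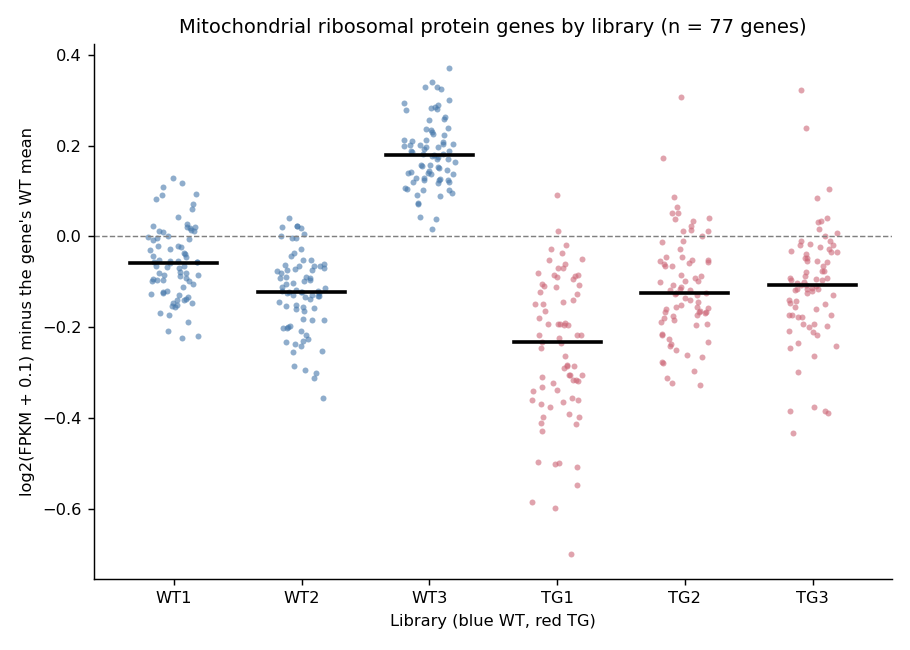
Each point is 1 of the 77 genes in 1 library, as log2(FPKM + 0.1) minus the mean of that gene over the 3 WT libraries, and the black bar is the median. The WT3 median is at 0.18, TG1 at -0.23, and the medians of WT2, TG2 and TG3 lie between -0.13 and -0.11.

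Other properties of the libraries differed as well, and not all of them followed the order of these values. The mitochondrial ribosomal protein genes are short, with a median gene length of 2255 bases against 3195 bases over all genes tested, and in TG1 the level of genes rose by 0.04 on the log2 scale with each doubling of gene length, where the other 5 libraries gave slopes of -0.03 to 0.02. With each 10 points of transcript GC content the level of genes changed by -0.04 in WT3 and by 0.07 in TG1, the lowest and highest slopes. The slope in WT2 was -0.03. After each library was corrected for gene length, the median of the genes was still highest in WT3 (0.13) and lowest in TG1 (-0.16). With transcript GC content corrected too, which was not planned, these medians were 0.14 and -0.15, and the median log2 fold change was -0.13. TG1 and TG2 also carried RNA of the choroid plexus, the epithelium that makes cerebrospinal fluid. All 12 marker genes of that tissue had a fold change above 0, their summed FPKM was 83.0 to 112 in WT and 1339, 4194 and 92.6 in TG1, TG2 and TG3, and no marker was at 0 in any library. With the mean level of those markers as a covariate the median was -0.12 and 2 of the 77 genes were lower (Mrpl43 and Mrps31). In that fit 375 of all 20952 genes tested were lower. Without TG1 and TG2 the median of the 77 genes was -0.11. All 6 oligodendrocyte markers were lowest in TG1, where their median stood 0.66 below the WT mean on the log2 scale. The part of cell composition in the result was not tested, and in tissue RNA fewer cells of a type and less RNA per cell cannot be told apart. The changed gene itself, Slc1a2, was measured at 202, 200 and 177 FPKM in WT and 222, 207 and 217 in TG, and its FPKM does not report the coding changes.

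Among the 7 genes lower at an unadjusted p under 0.05, Mrps31 had the smallest p. Mrps31 (ENSMUSG00000031533, chr8:22411361-22429665, plus strand) encodes a small-subunit protein specific to mitochondria. Its FPKM was 5.87, 5.30 and 6.22 in WT and 4.65, 4.80 and 4.41 in TG, so the groups lay apart, TG3 was the lowest library and TG was at 79.7% of WT. The log2 fold change was -0.32 with a standard error of 0.092, and the adjusted p was 0.786 in limma, the same as for each of the other 6 genes. Mrps31 was below the same threshold in 19 of the 20 alternative analyses, including those without WT3, without TG1 and without both, and missed it only without TG1 and TG2.

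Mrps18b (ENSMUSG00000024436, chr17:35910379-35916389, minus strand) showed the largest fold change. It is one of the 3 Mrps18 paralogues and sits in the small subunit. Its FPKM was 4.63, 3.76 and 5.01 in WT and 2.69, 3.74 and 3.37 in TG, and WT2 and TG2 nearly met. The log2 fold change was -0.44 with a standard error of 0.16. Reads were few, from 89 to 196 in a library, and 30.5% of its exonic bases lie opposite the antisense gene Gm16279, which had 4 to 15 reads. The other paralogues were Mrps18c, also in the small subunit, at 11.3, 8.69 and 14.1 FPKM in WT and 8.93, 9.80 and 8.23 in TG (log2 fold change -0.31, standard error 0.17), and Mrps18a, in the large subunit, at 9.06, 8.96 and 11.4 in WT and 9.15, 8.80 and 8.63 in TG (-0.14, standard error 0.11). For both of these the groups overlapped.

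Mrpl50 (ENSMUSG00000044018, chr4:49512596-49521093, minus strand), a large-subunit protein specific to mitochondria, was at 18.1, 17.1 and 19.3 FPKM in WT and 14.9, 15.9 and 16.3 in TG. The groups lay apart and the log2 fold change was -0.21 with a standard error of 0.075. Mrps24 (ENSMUSG00000020477, chr11:5703983-5715680, minus strand), which has a bacterial counterpart at the entry of the mRNA channel, was at 19.2, 18.2 and 21.2 FPKM in WT and 15.0, 15.7 and 18.1 in TG. Its groups lay apart by a narrow margin, between WT2 and TG3, and the log2 fold change was -0.27 with a standard error of 0.095. Of its exonic bases, 15.4% overlap Urgcp on the same strand.

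Mrps22 (ENSMUSG00000032459, chr9:98588730-98601660, minus strand), a small-subunit protein specific to mitochondria in which recessive variants cause respiratory chain defects in people, was at 4.55, 4.20 and 4.72 FPKM in WT and 3.53, 3.98 and 3.87 in TG. All TG libraries were below all WT libraries, with a log2 fold change of -0.24 and a standard error of 0.095. Its promoter is printed above with the ETS core next to the start.

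In the remaining pair the groups overlapped. Mrpl43 (ENSMUSG00000025208, chr19:45005014-45006442, minus strand), a large-subunit protein specific to mitochondria, was at 30.9, 32.1 and 36.3 FPKM in WT and 25.6, 31.1 and 25.4 in TG, where TG2 lay among the WT values. The log2 fold change was -0.28 with a standard error of 0.10. It shares 33.4% of its exonic bases with Twnk on the opposite strand, and Twnk itself had a log2 fold change of 0.09 with a standard error of 0.12. Its promoter window holds ETS cores 56 and 12 bases before the start. Mrpl41 (ENSMUSG00000036850, chr2:24974117-24975098, minus strand), whose values and promoter are given above, had a log2 fold change of -0.30 with a standard error of 0.13, and TG3 lay above WT2.

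**Figure D3:**
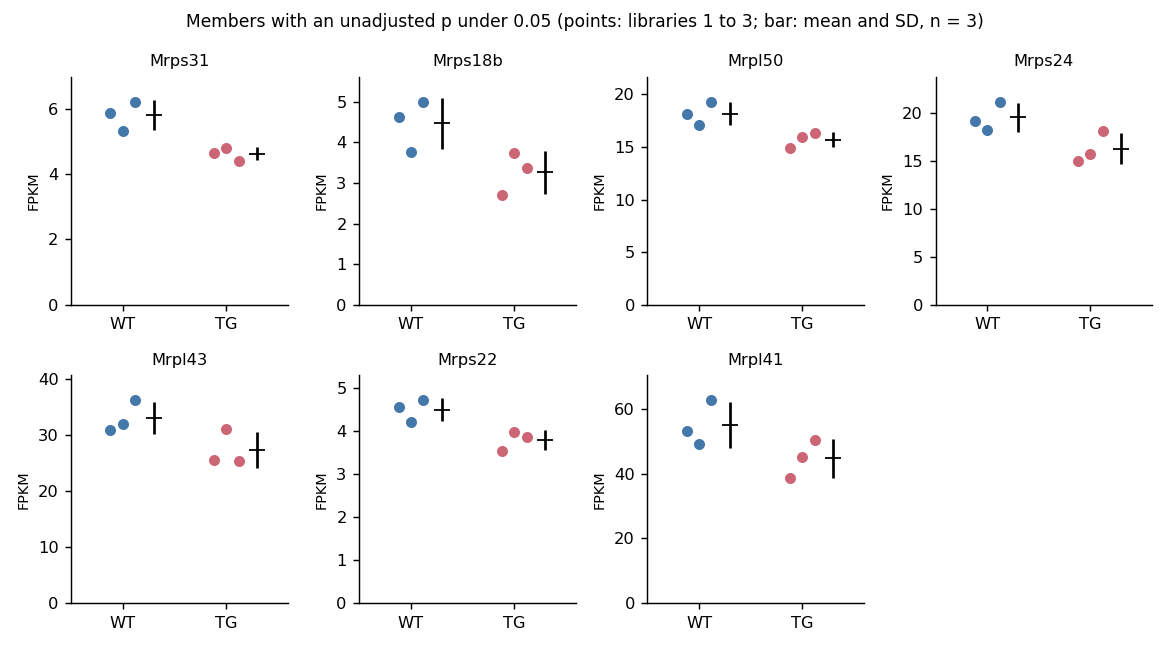
FPKM of the 7 genes with an unadjusted p under 0.05, each point a library in the order 1 to 3 and each bar the mean and SD (n = 3), on axes that start at 0. The groups lie apart in Mrps31, Mrps18b, Mrpl50, Mrps24 and Mrps22 and overlap in Mrpl43 and Mrpl41, and WT3 is the highest point in each.

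Mrps16, a small-subunit protein with a bacterial counterpart, came next at 6.81, 6.07 and 7.97 FPKM in WT and 5.65, 5.74 and 5.93 in TG, with a log2 fold change of -0.25 and a standard error of 0.11. Its groups lay apart although it missed the threshold, as did those of Mrpl23 (-0.19, standard error 0.11) and of Mrps36 (-0.29, standard error 0.14). The only genes with a fold change above 0 were Mrps11 and Mrpl40. Mrps11, a small-subunit protein with a bacterial counterpart, was at 8.19, 7.10 and 7.94 FPKM in WT and 6.75, 8.73 and 9.69 in TG, so the TG libraries surrounded the WT values (log2 fold change 0.10, standard error 0.14). Its neighbour Mrpl46, which starts beside it on the other strand, had a log2 fold change of -0.20 with a standard error of 0.14. Mrpl40, a large-subunit protein, was at 8.81, 9.11 and 10.8 FPKM in WT and 10.2, 8.49 and 11.3 in TG (0.06, standard error 0.13).

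The small negative median was found in both subunits. The median log2 fold change was -0.14 for the 26 small-subunit genes and -0.14 for the 50 large-subunit genes tested, and 4 (15.38%) and 3 (6%) of them were lower at an unadjusted p under 0.05, against 2.78% of all genes tested. The 46 genes counted as having a bacterial counterpart had a median of -0.16 with 1 lower (Mrps24, 2.174%, below the share of all genes), and the 30 genes tested that were counted as specific to mitochondria had a median of -0.14 with 6 lower (20%). With Mrps18a and Mrps18b moved to the former class, a choice made after seeing the data, 2 of 48 (4.167%) and 5 of 28 (17.86%) were lower. These classes were not tested against each other. The 53 genes with under 10% of their exons overlapped and under 10% of their 50-base stretches shared with another gene had a median of -0.13 with 3 lower (Mrps31, Mrpl50 and Mrps22, 5.66%), and the other 24 genes tested had a median of -0.18 with 4 lower (16.67%). The part of shared reads in these values was not tested. Genes with an ETS or NRF1 core in the promoter window had a median of -0.15 (34 tested), and those without one had a median of -0.16 (34 tested). The 30 head-to-head neighbours tested that are not themselves mitochondrial ribosomal protein genes had a median of -0.02. Of these neighbours, 18 had a fold change below 0 (60%, against 50.4% of all genes tested). At an unadjusted p under 0.05, 0 of them were lower (against 2.78%) and 0 higher (against 3.13%).

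The other components of mitochondrial translation were read from the same fit, in lists written for this purpose. After adjustment 0 of their genes passed. Of the 5 proteins of the mitochondrial ribosome that carry other names, all 5 had a fold change below 0, with a median of -0.17, and 2 were lower at an unadjusted p under 0.05 (40%, against 2.78% of all genes tested). Ptcd3, a pentatricopeptide protein of the small subunit, was at 5.43, 5.24 and 5.96 FPKM in WT and 4.36, 4.51 and 4.56 in TG (log2 fold change -0.30, standard error 0.086), and Chchd1 was at 25.4, 23.6 and 27.0 in WT and 18.1, 22.3 and 21.99 in TG (-0.29, standard error 0.10). In both, all TG libraries were below all WT libraries. Aurkaip1, the most abundant of the 5, had overlapping groups at 27.1 to 37.8 FPKM (-0.17, standard error 0.11). Dap3 (-0.13) and Gadd45gip1 (-0.05) completed the list.

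All 15 translation factors had a fold change below 0 (against 50.4% of all genes tested), with a median of -0.07. Of these factors, 1 was lower (6.667%, against 2.78% of all genes tested). This was Mtrf1, a release factor, at 3.92, 3.16 and 4.43 FPKM in WT and 2.72, 2.89 and 2.82 in TG (log2 fold change -0.42, standard error 0.14). Tufm, the elongation factor that brings aminoacyl-tRNA to the ribosome and the most abundant of the list, was at 20.0 to 23.1 FPKM in WT and 19.7 to 21.0 in TG (-0.11, standard error 0.078). Of the 21 genes for assembly of the particle and modification of its RNA, 19 were below 0 (90.48%) with a median of -0.13. In this list 0 passed the test in either direction, against 2.78% lower and 3.13% higher over all genes tested. Rbfa, an assembly factor of the small subunit, came closest (-0.17, standard error 0.082). Its groups nearly met, at 20.15 FPKM in WT1 and 20.145 in TG3. Ngrn, the most abundant, was at -0.20 (standard error 0.14).

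The 20 mitochondrial aminoacyl-tRNA synthetases and amidotransferase subunits had a median of -0.07 with 17 below 0 (85%, against 50.4% of all genes tested). Of these, 0 passed in either direction, against 2.78% lower and 3.13% higher over all genes. Nars2, the asparaginyl enzyme, had the smallest p (-0.28, standard error 0.15), and Gatc, the most abundant, was at -0.03 (standard error 0.10). Among the 9 genes for transcription and replication of the mitochondrial genome the median was -0.12, with 6 below 0 (66.67%) and 0 passing. Tfb2m, a transcription initiation factor, was at -0.25 (standard error 0.12) and Tfam, which packages and transcribes mitochondrial DNA, at -0.10 (standard error 0.13).

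The standard errors of the particle's own RNAs (0.23 and 0.21) were above those of all 77 protein genes. The small-subunit RNA mt-Rnr1 was at 2862, 2458 and 3595 FPKM in WT and 2178, 2858 and 2918 in TG (log2 fold change -0.16, standard error 0.23). The large-subunit RNA mt-Rnr2 was at 2468, 2080 and 3131 FPKM in WT and 1955, 2339 and 2378 in TG (-0.19, standard error 0.21). For both RNAs WT3 was the highest library and TG1 the lowest, the same libraries as for the protein genes, and the groups overlapped. How much of these RNAs the library preparation kept is not given in the sources used here.

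Gene families outside mitochondrial translation were also highest in WT3 and lowest in TG1. The median of the 77 cytosolic ribosomal protein genes tested, relative to the WT mean on the log2 scale, was -0.03, -0.19 and 0.22 in WT and -0.41, -0.09 and -0.10 in TG, and that of the 37 complex I Nduf genes was -0.06, -0.14 and 0.22 in WT and -0.29, -0.11 and -0.10 in TG. Their median log2 fold changes were -0.20 and -0.18. WT3 was the highest library for 72 of the 77 cytosolic ribosomal protein genes and for 36 of the 37 Nduf genes, as it was for 72 of the 77 mitochondrial ribosomal protein genes. A small negative median was thus found in these families too, and whether it differed from that of the mitochondrial ribosomal protein genes was not tested.

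**Figure D4:**
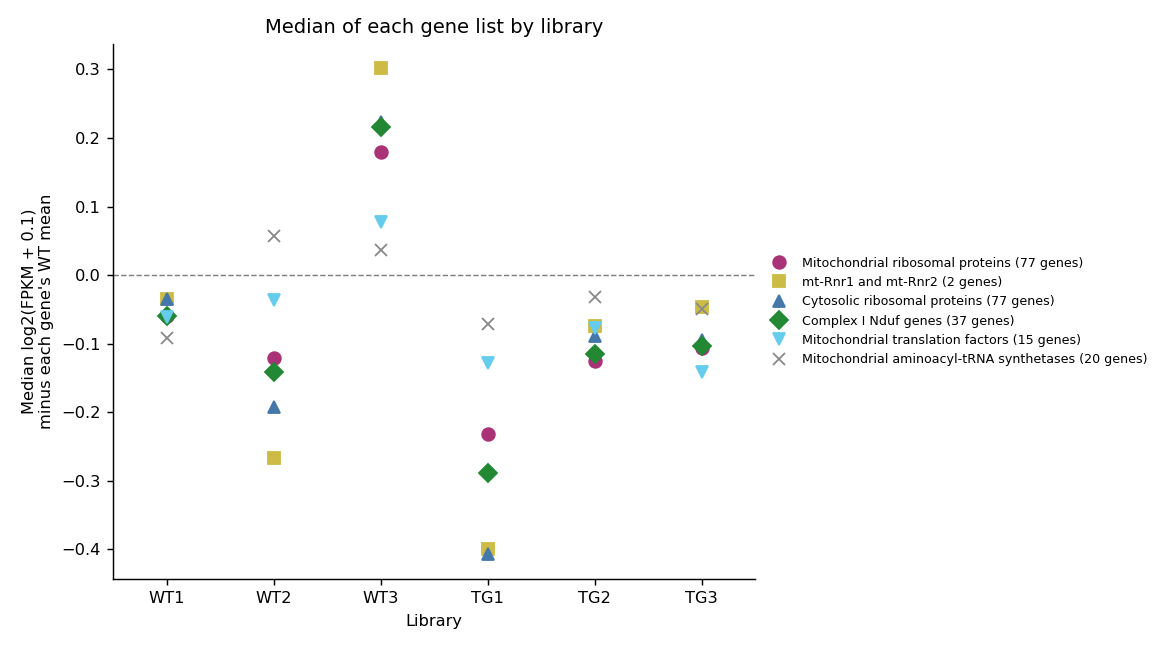
Median of log2(FPKM + 0.1) minus the WT mean of each gene, for the mitochondrial ribosomal protein genes and 5 other gene lists, in each of the 6 libraries. WT3 is the highest library for the mitochondrial and cytosolic ribosomal protein genes, the Nduf genes and the ribosomal RNAs (0.18 to 0.30), and TG1 is the lowest for the same lists (-0.41 to -0.23).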

How the data were processed

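RNA-seq of the hippocampus of 3 WT and 3 TG mice was used. The authors counted reads per gene with HTSeq and computed the deposited FPKM from the count and the gene length, each column holding 1 library. The build in the submitters' processing notes is GRCm38 (mm10), and the aligner and the counting options are not given in the sources used here. The methods name Trizol and NEBNext, and the labels RNeasy and SMARTer. Without stated strand, overlapping and antisense genes cannot be told apart, and reads shared by near-identical genes are uncertain.

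FPKM times gene length gave whole multiples of 1 step per library for 100% of values (tolerance 0.05 reads). These reads entered only an alternative (limma-voom). Every gene whose mean FPKM reached 0.1 entered limma 3.58.1 (lmFit, eBayes with trend) in R 4.3.3 on log2(FPKM + 0.1), so folds of low genes are understated. The p-values of the main analysis come from this fit, are two-sided and were adjusted by Benjamini-Hochberg over 20952 genes. Each alternative gave its own p-values, adjusted over the genes it tested (13325 to 30589). At these depths 3 reads on a gene of 1 kb give 0.160 to 0.190 FPKM. Alternatives were the pseudocount (0.01 or 1), the filter (none, or 1 FPKM), no trend, equal medians, protein-coding genes only, limma-voom, left-out libraries, a replicate block, a choroid plexus covariate and a length correction. A correction for length and GC content was run as well and was not planned.

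Of the genes, 73 had the same start and end in GENCODE M21 as in the table. Sharing was counted over 50-base stretches of transcripts. Python 3.11.15, pandas 2.3.3, numpy 2.4.6 and matplotlib 3.10.9 were used. The genes and lists were chosen with earlier results of these data known. Named genes were the 8 with the smallest p in each direction, the 5 with the highest and the 5 with the lowest mean FPKM, every gene with groups apart and p under 0.05, the paralogues Mrps18a, Mrps18b and Mrps18c, from each other list the gene with the smallest p and that with the highest FPKM, and both ribosomal RNAs. Mrpl2, Mrpl23, Mrps36, Mrpl46, Chchd1, Dap3 and Gadd45gip1 were named, and the cytosolic ribosomal protein and Nduf genes were added, after values were seen. The authors' further measurements of these mice were not used here.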

Additional observations from a re-analysis of the deposited data

How the results depend on the processing

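The median log2 fold change of the 77 genes was below 0 in the main analysis and in all 20 alternatives, from -0.21 (without WT2) to -0.03 (without WT3 and TG1, added after seeing the data). After adjustment 0 genes were lower or higher in each of them. The number lower at an unadjusted p under 0.05, 7 in the main analysis, was 3 without the trend and 11 with equal medians. It was 2 with the choroid plexus covariate, 2 without WT3 and TG1, and 1 to 15 when libraries were left out singly. The number higher, 0 in the main analysis, was 1 without WT3 and TG1 and ranged from 0 to 1 when libraries were left out singly. The number with a fold change below 0 was 49 without WT3 and TG1. In the other mitochondrial translation lists, 3 genes had an unadjusted p under 0.05 in the main analysis, all of them lower. Counted in either direction, the number was 5 with equal medians, 1 with the choroid plexus covariate and 1 to 5 when libraries were left out singly. Equal medians moved the calls over all genes from 582 lower and 656 higher to 760 and 481. Of the 20952 genes tested, 564 were lower without the trend, 375 with the choroid plexus covariate and 505 without WT3 and TG1. That number was 406 to 717 when libraries were left out singly. Whether the replicate numbers pair the libraries could not be told, since all correlations between WT and TG libraries lay between -0.03 and 0.04. Same-numbered libraries correlated at 0.01, 0.04 and 0.003. WT1 correlated best with TG1, WT2 with TG2 and WT3 with TG1. With the replicate block 10 of the 77 genes were lower, 6 of them among the 7, and 610 of all 20952 genes were lower. Where an arm has 1 library, its spread is taken from the other group. The cause of these changes was not tested.

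Directions turned for some named genes, whose log2 fold changes in the main analysis ran from -0.23 (Mrpl32) to 0.10 (Mrps11). Leaving out libraries singly gave ranges of -0.12 to 0.059 for Gatc, -0.036 to 0.17 for Mrpl40, -0.00959 to 0.25 for Mrps11, -0.093 to 0.038 for Mrps12, -0.23 to 0.053 for Mrps21, -0.068 to 0.0463 for Mrps35 and -0.18 to 0.032 for Tfam. Without TG1 and TG2, Gatc was at 0.13, Mrps12 at 0.033 and Mrps35 at 0.041. With the choroid plexus covariate they were at 0.055, 0.011 and 0.00536. With the length correction Gatc was at 0.028 and Mrps12 at 0.049, and with length and GC Gatc was at 0.0337, Mrps12 at 0.010 and mt-Rnr1 at 0.010. Without WT3 and TG1, Gatc was at 0.0018, Mrpl32 at 0.067, Mrps12 at 0.083, Mrps21 at 0.15, Mrps30 at 0.035, Mrps35 at 0.083, Ngrn at 0.016, Tfam at 0.096, mt-Rnr1 at 0.12 and mt-Rnr2 at 0.0578.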

Other observations

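Pseudogenes with the same name pattern are not among the 78 genes. Of the 5 in the table, Mrpl23-ps1 had 3, 5 and 5 reads in WT and 7, 10 and 13 in TG, and Mrps36-ps2 had 1, 1 and 3 reads in WT and 4, 7 and 3 in TG. Both had an unadjusted p under 0.05 in limma and an adjusted p of 0.786, and were higher in TG, opposite in direction to their parent genes Mrpl23 and Mrps36, at counts too low to support a level. Whether reads of the parent genes were assigned to them was not tested.

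Lars2, the mitochondrial leucyl-tRNA synthetase, stood apart in 1 library. It was at 15.9 FPKM in TG1 and at 6.91 to 8.75 in the other 5 libraries, and its log2 fold change of 0.35 (standard error 0.27) rests on that library. It was named after its values were seen.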
